A study of Mus musculus with 24 samples.

Results

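A set of 71 genes carried more RNA in mouse cells labelled REST knock-out than in wildtype cells, both as embryonic stem cells (ES) and as neuronal progenitors (NP). Genes with certain symbol beginnings were left out of it. They were selected on measured values of the arrays described here. A gene entered when the mean log2 signal of the RESTko arrays exceeded that of the RESTwt arrays by at least 0.5 at ES and at NP, with all 3 RESTko arrays above all 3 RESTwt arrays at both stages. Of 19938 genes with a probe set naming 1 gene, 515 had such a difference at ES, 470 at NP and 116 at both. The arrays were also apart at both stages for 111 of them. Leaving out 40 genes by the beginnings of their symbols (Chg, Scg, Vgf and 28 others, 31 in all) left 71. The ES and NP genotype differences of the 71 genes are therefore a description without a test, and their tests concern terminal neurons (TN) and a separate wildtype time course. Tests at ES and NP are given only for genes outside the 71, apart from counts over marker lists that hold Map2 or Lama1.

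The cells were differentiated in vitro from ES cells through NP to TN. On 1 platform, 18 Affymetrix arrays held cells of the strain Black Agouti 129 in 6 groups of 3, lettered a to c: ES RESTko, ES RESTwt, NP RESTko, NP RESTwt, TN RESTko and TN RESThet, the last being heterozygous for the knock-out. The TN comparison thus has a control that carries the knock-out allele, and no RESTwt neurons were used here. A second platform held 6 arrays of wildtype cells, with 2 arrays a stage and no REST genotype compared. Their strain is given as mixed 129Sv-C57Bl/6. Array titles begin with 1 for ES and NP on the first platform. They begin with 2 for its TN arrays and for all arrays of the second platform. What the number marks was not determined, so on the 18 arrays it cannot be told apart from the step to TN. The labels call the arrays biological replicates without saying that they came from separate cultures or clones, so p-values measure the spread between these arrays, which may be technical. In bulk RNA such as this, fewer cells of a type and less RNA per cell cannot be told apart.

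REST is a zinc finger repressor that binds a DNA element called RE1 and recruits enzymes that remove histone acetylation and methylation marks of active genes. It is abundant in stem cells and in most tissues outside the nervous system, and it falls as neurons form. Many of its known targets encode synaptic proteins, ion channels, secretory granule proteins and neuron-specific factors. The RE1 is made of a left and a right part that lie close together in its usual form.

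RefSeq promoter windows on GRCm38.p6, from 250 bases before to 50 after a start site, were matched to 53 of the 71 genes, as 64 windows. Both strands were searched for the left part TTCAGCACC and the right part GGACAGCGC, and for their inner parts CAGCACC and GGACAG separated by 2 bases. The left part was in windows of 3 genes, Dner, Crip2 and Lhfpl5, and in 122 of all 32851 windows (0.371%). The right part was in 2 overlapping windows of Elovl2, against 133 of all windows (0.405%). The spaced pair was in none of the 64 windows and in 12 of all (0.0365%), and it shares letters with both parts. The search took exact letters only and so missed near matches. In the printed Dner and Crip2 windows, the left part is followed after 2 bases by ggacaa and agacag. Each differs from GGACAG in a single letter. These windows were printed because they held the left part. Near matches were not counted over all windows, so how common they are is not known here. These matches are letters in a window and not sites of binding. The windows below are those with a match, printed 5′ to 3′ on the strand of the gene with the matching part in capitals, so that a reader can see what surrounds it.
Dner: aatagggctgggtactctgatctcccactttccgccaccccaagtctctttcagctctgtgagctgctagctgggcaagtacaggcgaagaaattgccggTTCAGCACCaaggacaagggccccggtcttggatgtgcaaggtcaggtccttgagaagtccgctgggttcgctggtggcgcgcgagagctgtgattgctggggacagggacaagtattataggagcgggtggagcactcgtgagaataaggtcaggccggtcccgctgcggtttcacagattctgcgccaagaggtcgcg
Crip2: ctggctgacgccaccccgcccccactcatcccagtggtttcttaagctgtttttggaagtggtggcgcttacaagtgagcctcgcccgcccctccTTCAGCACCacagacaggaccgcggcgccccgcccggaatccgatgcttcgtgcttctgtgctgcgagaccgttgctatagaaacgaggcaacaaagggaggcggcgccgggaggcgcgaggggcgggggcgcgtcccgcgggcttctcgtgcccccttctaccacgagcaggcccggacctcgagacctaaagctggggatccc
Lhfpl5: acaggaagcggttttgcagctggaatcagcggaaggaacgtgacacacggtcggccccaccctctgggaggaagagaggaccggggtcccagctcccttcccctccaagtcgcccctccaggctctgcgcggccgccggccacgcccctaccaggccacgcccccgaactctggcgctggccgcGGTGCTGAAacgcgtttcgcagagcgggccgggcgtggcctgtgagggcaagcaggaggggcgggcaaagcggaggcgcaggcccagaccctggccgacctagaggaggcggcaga
Elovl2: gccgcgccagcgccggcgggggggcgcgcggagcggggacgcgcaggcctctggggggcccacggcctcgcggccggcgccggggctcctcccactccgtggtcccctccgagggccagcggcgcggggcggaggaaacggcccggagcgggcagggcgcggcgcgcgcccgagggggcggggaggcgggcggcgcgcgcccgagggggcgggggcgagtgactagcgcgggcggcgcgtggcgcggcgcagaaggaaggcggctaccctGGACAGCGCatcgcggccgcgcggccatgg

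The Dner window is chr1:84696172-84696471 on the minus strand, and its match begins at base -150 relative to the start. For Crip2 the window is chr12:113139986-113140285 on the plus strand, with the match at -155. Lhfpl5 has chr17:28575469-28575768 on the plus strand, with the match on the opposite strand, so that it reads GGTGCTGAA, at -66. The printed Elovl2 window is chr13:41220354-41220653 on the minus strand, with the match 21 bases past the start. The windows of these genes were rich in G and C: the median was 62.8% over the 64 windows against 52.7% over all, and the median number of CG dinucleotides was 20.5 against 7. No chance test was made of these shares.

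Over the 71 genes the median difference RESTko minus RESTwt was 0.75 at ES (0.51 to 2.13) and 0.79 at NP (0.50 to 2.77), while over all genes it was -0.03 and 0.01. The difference was larger at ES for 38 genes and larger at NP for the other 33. Sgcb, a subunit of the sarcoglycan complex of the muscle membrane, had the largest ES difference, 2.13 against 0.53 at NP. Muscle markers were higher at ES as well: the mean level of 8 such genes was 5.42 to 5.64 in RESTwt and 5.85 to 6.14 in RESTko, with 3 called higher and 0 lower by limma (median 0.33), and their part in the Sgcb difference was not tested. At NP 0 were called higher and 1 lower. Srgn, the core protein of a granule proteoglycan, had the largest NP difference, 2.77 against 0.69 at ES. Within this set, which the rule bounds at 0.5 on both measures and so shapes, the differences at the 2 stages had r = -0.07 (Spearman's rho = -0.05, n = 71 genes, which share their arrays at each stage). In all, 6 genes exceeded 1 at both stages: Rundc3a, Ckmt1, Galnt9, Car4, Mapk8ip2 and Rell2. Another 21 exceeded 1 at ES alone and 14 at NP alone.

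**Figure D1:**
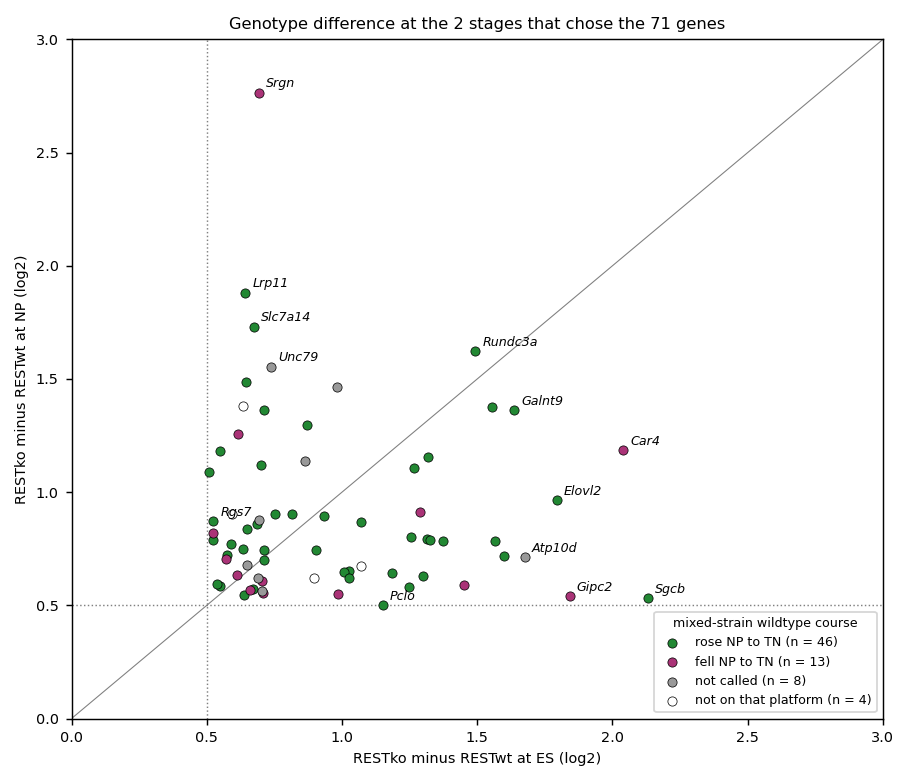
Difference RESTko minus RESTwt at ES (x axis) and at NP (y axis), in log2 signal, for the 71 genes, 1 point each; dotted lines mark the 0.5 of the choosing rule, the solid line marks equal differences, and colours give the step from NP to TN in the mixed-strain wildtype cells. Srgn stands highest at NP with 2.77 and Sgcb farthest out at ES with 2.13, and few genes are large on both axes.

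The 12 genes with the largest values of the smaller of both differences are given array by array, in the order a, b, c. Rundc3a, a RUN domain protein of neurons, ranked first. At ES its log2 signals were 7.31, 7.21 and 7.34 in RESTwt and 8.76, 8.82 and 8.76 in RESTko. At NP they were 8.61, 7.73 and 8.40 against 10.001, 9.82 and 9.80. The genotypes were apart at both stages by 1.49 (2.81-fold) and 1.62 (3.08-fold), and the RESTko progenitors reached the level of neurons: at TN the arrays read 9.66, 9.58 and 9.69 in RESThet and 9.86, 9.67 and 9.61 in RESTko.

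Enzymes make up 5 of the 12. Ckmt1, the mitochondrial creatine kinase, read 6.96, 6.69 and 6.76 in ES RESTwt and 8.24, 8.30 and 8.53 in ES RESTko, then 5.04, 4.38 and 4.31 in NP RESTwt and 5.81, 6.22 and 5.83 in NP RESTko. Both genotypes were lower at NP than at ES, with a similar distance between them (1.55 and 1.38). Galnt9, which starts O-linked sugar chains on proteins, read 4.67, 4.97 and 4.88 against 6.46, 6.40 and 6.57 at ES and 5.53, 5.21 and 5.50 against 6.72, 6.79 and 6.82 at NP (1.64 and 1.36). Car4, a membrane-bound carbonic anhydrase, read 6.02, 5.68 and 5.35 against 7.63, 7.71 and 7.84 at ES (2.04, 4.11-fold), and 6.26, 7.29 and 6.45 against 8.01, 7.74 and 7.81 at NP (1.19). For Car4, NP RESTwt array b stood above the other RESTwt arrays and below every RESTko array. Elovl2, an elongase of polyunsaturated fatty acids, read 5.93, 5.83 and 6.24 against 7.75, 7.73 and 7.90 at ES, and 6.81, 6.93 and 7.58 against 7.92, 8.22 and 8.06 at NP (1.79 and 0.96), with NP RESTwt array c the closest to the RESTko arrays.

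Mapk8ip2, a scaffold of the JNK kinase cascade, read 5.78, 5.59 and 5.56 in ES RESTwt against 7.01, 6.81 and 7.06 in ES RESTko, and 7.84, 7.19 and 7.86 against 8.85, 8.83 and 8.68 at NP (1.32 and 1.16). Rell2, related to a receptor of the TNF family, read 4.71, 4.97 and 5.01 against 6.19, 6.19 and 6.11 at ES and 5.90, 5.44 and 5.64 against 6.88, 6.73 and 6.68 at NP (1.27 and 1.11). In both genes the RESTko arrays of a stage lay closer together than the distance to the nearest RESTwt array. Lhfpl5, a part of the mechanotransduction complex of hair cells, read 4.54, 4.54 and 4.38 against 5.53, 5.46 and 5.41 at ES and 3.90, 3.90 and 4.13 against 5.44, 5.49 and 5.38 at NP (0.98 and 1.46). Its RESTko arrays were at nearly the same level at ES and NP, and its NP RESTwt arrays were the lowest of all groups.

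Drd2, the D2 dopamine receptor, read 4.22, 4.30 and 4.23 against 5.10, 5.15 and 5.30 at ES and 6.80, 6.47 and 7.22 against 7.72, 7.68 and 7.78 at NP (0.93 and 0.90). Its RESTko progenitors stood within 0.12 of the RESThet neurons on group means. Sult4a1, a brain member of the sulfotransferase family, read 7.61, 7.30 and 7.38 against 8.39, 8.38 and 8.12 at ES and 6.30, 6.36 and 6.76 against 7.87, 7.74 and 7.71 at NP (0.87 and 1.30). Like Ckmt1 it was lower at NP than at ES in both genotypes. Fv1, a restriction factor against murine retroviruses, read 5.11, 5.69 and 5.69 against 6.92, 6.80 and 6.64 at ES and 7.13, 6.95 and 6.76 against 7.94, 7.95 and 7.67 at NP (1.29 and 0.91). The uncharacterized transcript 9330159F19Rik read 3.24, 3.71 and 3.52 against 4.60, 4.40 and 4.68 at ES and 5.98, 5.32 and 5.71 against 7.01, 6.45 and 6.16 at NP (1.07 and 0.87). Its NP arrays are the closest to overlapping among the 12, with RESTwt array a at 5.98 and RESTko array c at 6.16.

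**Figure D2:**
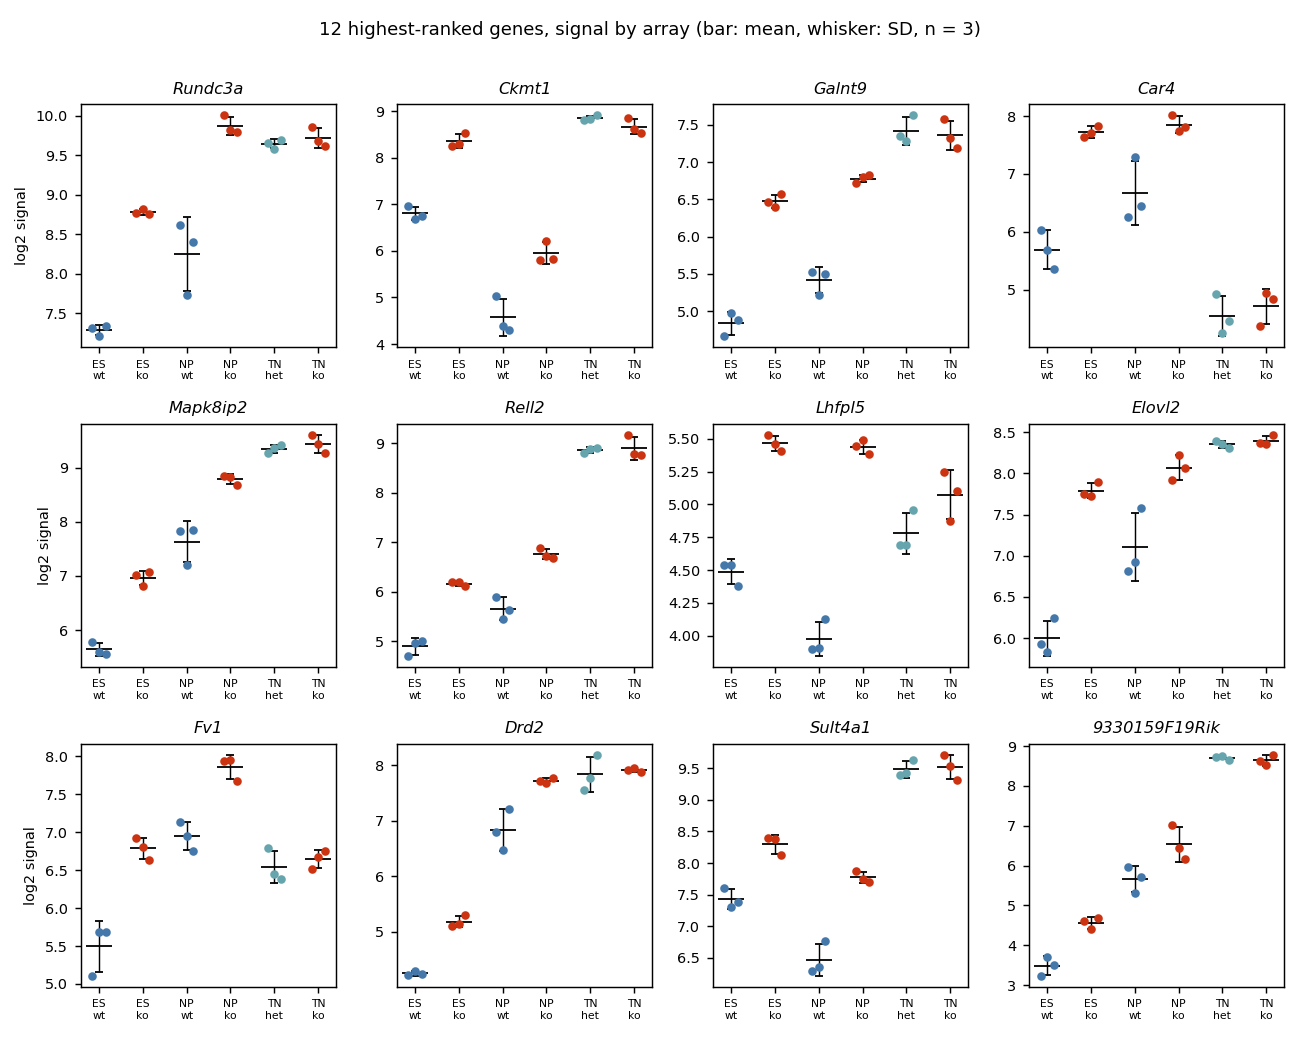
Log2 signal (y axis, scaled per gene) of the 12 highest-ranked genes on every array, by stage and genotype (x axis); points are arrays a to c, the bar is the group mean and the whisker the SD of 3 arrays. Blue RESTwt and red RESTko points are separate at ES and NP, as the choosing rule requires, and the RESThet and RESTko points at TN lie together.

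The rest of the genes are described by what they do; these roles were assigned after the members were known. Of the 71, 9 were grouped under synapses and neuronal membranes, among them Rundc3a, and this group is mixed. Their median difference was 0.71 at ES and 1.12 at NP, and it was larger at NP for 7 of the 9. Unc79, a subunit of the NALCN sodium leak channel, was higher by 0.74 at ES and 1.55 at NP, and Gprin1, a G protein partner in neurite outgrowth, by 0.71 and 1.36. Rims2, a scaffold of the active zone, was higher by 0.70 and 1.12. Pclo, a giant scaffold of the same zone, went the other way with 1.15 and 0.50. Ric3, a chaperone of nicotinic receptors, Rtn2, a reticulon that shapes the endoplasmic reticulum, Disp2 of the dispatched family and Bicdl1, an adaptor for transport along microtubules, complete the group at 0.54 to 0.71 at ES and 0.59 to 1.18 at NP.

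A group of 7 genes are receptors or G protein signalling proteins, with medians of 0.93 at ES and 0.90 at NP. Besides Rell2, Lhfpl5 and Drd2 they are Grik3, a kainate receptor subunit (0.86 at ES), Gng3, a neuronal G protein gamma subunit (0.68 and 0.86), and the G protein inhibitors Rgs17 (1.03 and 0.62) and Rgs7 (0.52 and 0.87). The 7 genes of kinase signalling and the cytoskeleton had medians of 1.19 and 0.78. The dendritic microtubule protein Map2 differed by 0.55 and 0.59, and Map6, which stabilizes microtubules, by 0.59 and 0.77. Soga3 (1.57 and 0.78), Jakmip2 (1.32 and 0.79) and the phosphatase Ppm1e (1.19 and 0.64) had their larger difference at ES, and the p38 kinase Mapk11 at NP (0.69 and 0.88).

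The 10 enzymes had a median of 1.46 at ES, the highest of the role groups, and 0.88 at NP, and 7 of them differed more at ES. Beyond those above, they include the neutral sphingomyelinase Smpd3 (1.37 and 0.79), the ganglioside enzyme St8sia1 (0.71 and 0.74), Ddah1, which breaks down methylated arginine (1.01 and 0.65), Acsl6, which activates long fatty acids (0.52 and 0.79), and Phyhipl (1.60 and 0.72). The 12 genes grouped under membrane proteins and transporters had medians of 0.66 and 0.75. They include Atp10d, which is annotated as a transcribed pseudogene in GRCm38.p6. Lrp11 (0.64 and 1.88), Slc7a14 (0.67 and 1.73), Xkr4 (0.65 and 1.49) and Xkr7 (0.64 and 1.38) differed far more at NP, and the lipid flippase relative Atp10d (1.68 and 0.71), the Notch ligand-like Dner (1.32 and 0.79) and Sgcb more at ES.

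A further 12 genes act in the nucleus or in protein turnover, with medians of 0.65 and 0.73. Cdkn1c, which encodes the cell cycle inhibitor p57, was higher by 0.61 at ES and 1.26 at NP, and Epas1, the hypoxia factor HIF-2 alpha, by 0.52 and 0.82. Srrm3, a splicing factor for microexons, was higher by 0.51 and 1.09, the zinc finger factor Klf12 by 1.30 and 0.63, and its relative Klf7 by 0.64 and 0.54. The deubiquitinase Otud7a (1.25 and 0.58) and the ubiquitin ligases Fbxl16 (0.81 and 0.90) and Marchf11 (0.91 and 0.75) belong here too. The remaining 14 genes have other or mixed roles and medians of 1.01 and 0.63, with the larger difference at ES for 12 of them. Gipc2 (1.84 and 0.54), the ciliary gene Cfap300 (1.45 and 0.59), Gnptg, a subunit of the enzyme that tags lysosomal proteins (1.25 and 0.80), and Crip2 (1.03 and 0.65) are examples.

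The threshold of 0.5 fell within a dense range. Just inside it were Acsl6 (0.52 at ES), Srrm3 (0.51 at ES) and Pclo (0.50 at NP). Just outside at NP were the growth factor Fgf18 (0.55 at ES, 0.496 at NP), Arrdc4 (0.59 and 0.494) and the thioredoxin inhibitor Txnip (0.74 and 0.490). Acsl6 read 5.74, 5.82 and 5.69 in RESTwt against 6.25, 6.33 and 6.23 in RESTko at ES, and 6.36, 6.07 and 6.32 against 7.11, 7.07 and 6.94 at NP. Srrm3 read 4.90, 4.83 and 4.87 against 5.24, 5.49 and 5.40 at ES, and 5.97, 5.70 and 5.84 against 6.99, 6.84 and 6.96 at NP. Pclo read 4.30, 4.61 and 4.30 against 5.63, 5.50 and 5.54 at ES, and 5.61, 5.06 and 5.59 against 6.17, 5.72 and 5.86 at NP. Of these, Pclo had the arrays of both genotypes closest together, at NP. Fgf18 read 5.99, 6.18 and 6.17 against 6.72, 6.75 and 6.52 at ES, and 6.40, 6.69 and 6.75 against 6.80, 7.28 and 7.26 at NP. Arrdc4 read 6.94, 6.90 and 6.99 against 7.40, 7.54 and 7.66 at ES, and 7.87, 7.72 and 7.72 against 8.41, 8.29 and 8.08 at NP. Txnip read 9.29, 9.27 and 8.95 against 9.98, 9.99 and 9.77 at ES, and 9.38, 9.26 and 9.19 against 9.62, 9.94 and 9.74 at NP. The arrays of all 3 outside genes were apart at both stages too.

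In terminal neurons few of the 71 genes differed between genotypes. With limma, 5 were called higher in the arrays labelled RESTko than in RESThet (adjusted p under 0.05 over all 19938 genes) and 0 lower, with a median difference of 0.02 (all genes -0.02). The 5 make up 7.04% of the 71, while 0.356% of all genes were called higher and 0.802% lower at TN. At an unadjusted p under 0.05 there were 13 of 71 (18.3%), against 2342 of all genes (11.7%). The 95% interval of the TN difference lay wholly within 0.5 on either side of 0 for 52 of the 71 genes, and for 17585 of all 19938. On group medians over the 71 genes, the log2 level was 8.28 in TN RESThet and 8.24 in TN RESTko, against 5.69 and 6.50 in ES RESTwt and RESTko, and 6.52 and 7.41 at NP.

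**Figure D3:**
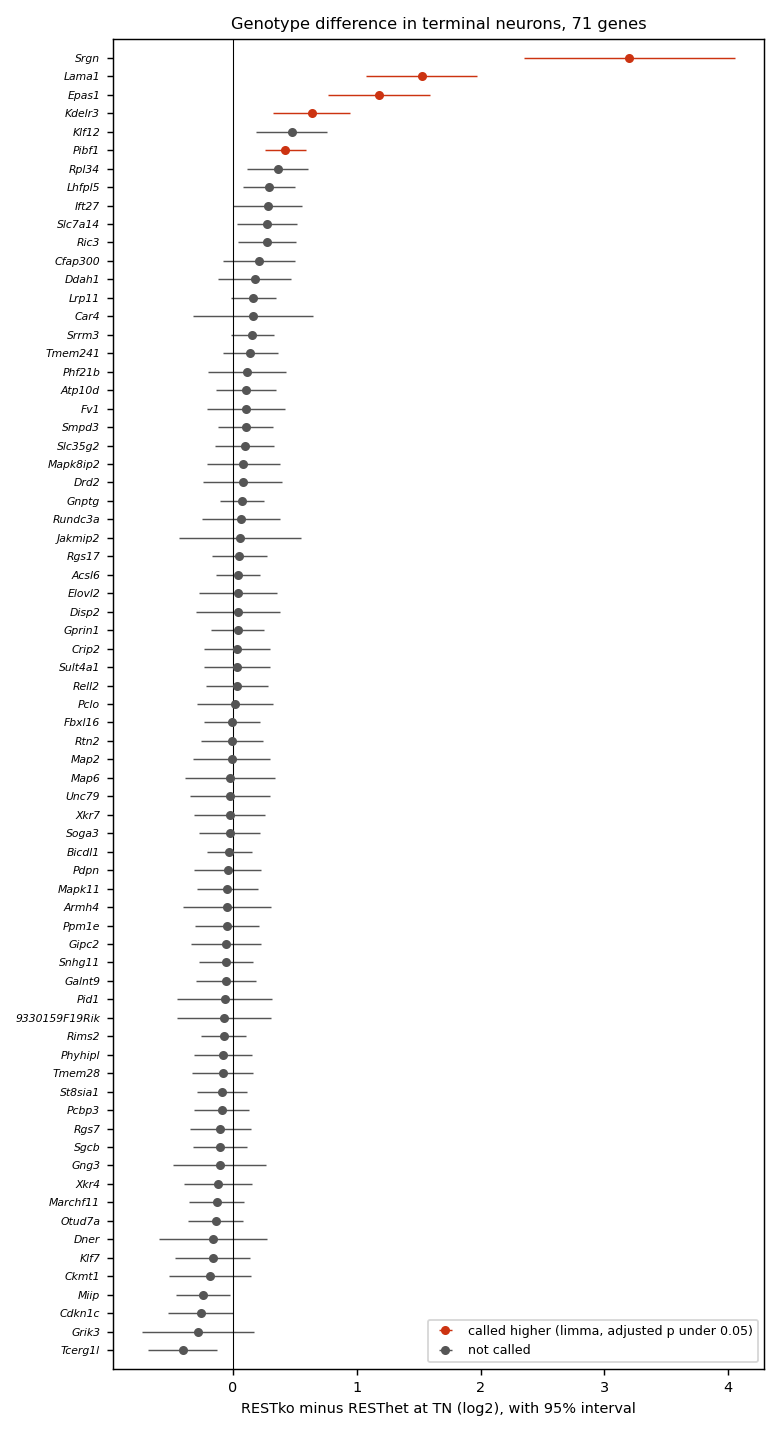
Difference RESTko minus RESThet at TN in log2 signal (x axis) with its 95% interval from limma, for each of the 71 genes (y axis, in order of size). Red points are the 5 called genes, from 0.43 to 3.20, and the intervals of most others are short and include 0.

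Srgn was the gene with the largest TN difference among the 71. Its TN signals were 5.88, 5.61 and 5.53 in RESThet and 8.38, 9.52 and 8.73 in RESTko, 9.19-fold apart (difference 3.20, SE 0.40, 95% interval 2.35 to 4.05, adjusted p = 0.00033, limma). Serglycin is best known from blood cells. The defining blood cell marker Ptprc was at 3.28 to 3.47 in every group mean, and 0 of 10 myeloid and microglia markers were called at any stage. The summed level of that list, as a mean over its genes, was 4.21 to 4.30 in TN RESThet and 4.19 to 4.30 in TN RESTko. Whether other cell types had a part in the Srgn difference was not tested. At ES the Srgn arrays read 5.51, 5.49 and 5.68 in RESTwt and 6.06, 5.79 and 6.90 in RESTko, and at NP 4.72, 6.23 and 5.11 against 9.13, 7.63 and 7.61. The Srgn difference thus was smallest at ES and about 3 at NP and TN.

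Lama1, the laminin alpha 1 chain of basement membranes, read 6.94, 6.68 and 6.79 in TN RESThet and 7.71, 9.06 and 8.22 in TN RESTko (difference 1.53, SE 0.21, 95% interval 1.08 to 1.97, adjusted p = 0.0009, limma). Epas1 read 5.22, 4.94 and 5.48 against 6.05, 6.94 and 6.20 (1.18, SE 0.19, 0.77 to 1.59, adjusted p = 0.0041, limma). Kdelr3, a receptor that returns proteins to the endoplasmic reticulum, read 5.61, 5.88 and 5.54 against 5.98, 6.78 and 6.19 (0.64, SE 0.15, 0.33 to 0.95, adjusted p = 0.042, limma). RESTko array b was the highest for Srgn, Lama1, Epas1 and Kdelr3. Without it the differences were 2.88, 1.16, 0.91 and 0.41, and Kdelr3 was no longer called (adjusted p = 0.105, limma). Pibf1, a protein of the centrosome, read 6.75, 6.68 and 6.62 against 7.001, 7.14 and 7.18 (0.43, SE 0.08, 0.26 to 0.59, adjusted p = 0.0097, limma), a small difference with tight arrays.

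The calls of 4 of these genes rested on the spread pooled over all groups. When the TN arrays were fitted alone, Srgn was still called and the adjusted p was 0.108 for Lama1, 0.119 for Epas1, 0.113 for Pibf1 and 0.315 for Kdelr3 (limma). For 12 endoderm markers, with Lama1 left out, the mean level in TN RESThet was 5.09, 5.30 and 5.02. In TN RESTko it was 5.28, 5.62 and 5.45. Array b was the highest in both groups, and the groups overlapped, with RESTko array a below RESThet array b. Of the 13 endoderm markers, which include Lama1 itself, 2 were called higher at TN (Lama1 and Dab2), 4 higher at ES and 1 higher and 4 lower at NP. Their part in the TN differences was not tested. Fibroblast markers overlapped too, with means of 8.26 to 8.73 in RESThet and 8.48 to 8.66 in RESTko.

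**Figure D4:**
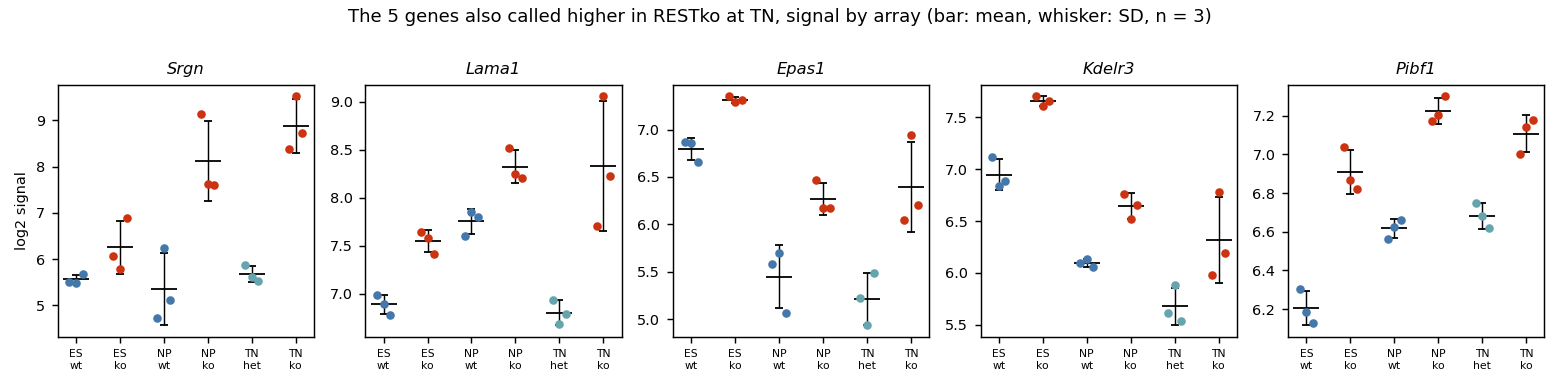
Log2 signal (y axis, scaled per gene) on every array, by stage and genotype (x axis), of the 5 genes called higher in RESTko at TN; points are arrays a to c, the bar is the group mean and the whisker the SD of 3 arrays. Srgn separates by 3.20 at TN, and 1 of the 3 RESTko arrays at TN stands above the others for Srgn, Lama1, Epas1 and Kdelr3.

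Among genes not called at TN, the zinc finger gene Klf12 had a difference of 0.48 (adjusted p = 0.117), Rpl34 of 0.36 (0.183) and Tcerg1l of -0.40 (0.190, limma). The genes that led at ES and NP had small values: Rundc3a 0.07, Ckmt1 -0.18, Galnt9 -0.06, Car4 0.17, Mapk8ip2 0.09 and Rell2 0.03. All 45 synapse, receptor, kinase, enzyme and membrane genes lay between -0.28 and 0.29. Rpl34 belongs to a gene with many processed copies, so its signal is uncertain.

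The wildtype course gave the stage steps of the 71 genes on arrays that their choice did not use. Of the 71, 67 were on that platform (Rpl34, Slc35g2, Tmem28 and Xkr7 were not). From NP to TN 46 were called higher and 13 lower, with a median step of 1.96 (all genes -0.09, limma). That is 68.7% and 19.4% of the 67, against 21.7% and 29.1% of all 18194 genes. From ES to NP 24 were called higher and 11 lower (35.8% and 16.4%, against 19.9% and 19% of all genes), with a median step of 0.23 (all genes -0.01). The genes grouped under synapses and neuronal membranes mostly rose from NP to TN, with 8 of 9 called higher and 0 lower. So did the kinase and cytoskeleton genes, with 6 of 7 higher, and the enzymes, with 9 of 10 higher and 1 lower. The 13 measured genes of other or mixed roles did not, with 4 higher and 8 lower. The synapse gene that was not called, Unc79, had a low signal of 2.45 to 2.66 on every course array.

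Snhg11, a long noncoding RNA host gene of neurons, had the largest step of these genes. Its arrays read 6.53 and 6.72 at ES, 5.57 and 5.19 at NP and 12.17 and 11.86 at TN, a rise of 6.64 from NP to TN (SE 0.18, adjusted p = 3.2e-08, limma). Disp2 read 2.97 and 2.65, 3.36 and 3.71, then 9.37 and 9.21 (5.76, adjusted p = 4.5e-08, limma). Dner read 4.85 and 5.05, 5.57 and 6.56, then 11.39 and 11.34 (5.30, adjusted p = 5.5e-07, limma). Map6 read 4.03 and 4.16, 4.33 and 5.30, then 9.39 and 9.81 (4.78, adjusted p = 1.3e-06, limma). In these genes the neurons stand far above both earlier stages. The ES and NP differences of Snhg11 between genotypes, 0.67 and 0.57, come from the other platform. Their size cannot be set directly against these steps.

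Car4 fell by 4.43 from NP to TN, from 7.54 and 7.91 to 3.27 and 3.31 (SE 0.17, adjusted p = 1.3e-07, limma), after 7.58 and 7.92 at ES. Srgn fell by 2.94 (adjusted p = 0.0315, limma), on arrays that differed widely within each stage: 6.53 and 9.02 at ES, 7.51 and 9.73 at NP and 4.62 and 6.74 at TN. Cdkn1c rose by 3.32 from ES to NP, from 7.08 and 7.24 to 10.32 and 10.63 (adjusted p = 1.2e-06), and then fell by 2.32 to 7.99 and 8.32 (adjusted p = 4.3e-06, limma). Kdelr3 fell by 2.24 (adjusted p = 0.0002, limma), from 7.27 and 7.88 to 4.95 and 5.72. In all 4 genes both TN arrays lay below both NP arrays. The 13 genes that fell were Car4, Srgn, Cdkn1c, Kdelr3, Pdpn, Epas1, Miip, Lama1, Cfap300, Phf21b, Pibf1, Gipc2 and Fv1.

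Between ES and NP, the other risers with large steps were Soga3, from 4.58 and 4.32 to 6.50 and 7.19 (2.40, adjusted p = 4.2e-05), St8sia1, from 3.40 and 3.20 to 5.40 and 5.83 (2.31, adjusted p = 1.1e-05), and Phf21b, from 4.56 and 4.66 to 6.61 and 7.22 (2.30, adjusted p = 3.2e-05, limma). Lrp11 fell by 2.9996, from 7.98 and 8.48 to 5.30 and 5.16 (adjusted p = 2.7e-06, limma), and then rose by 3.46 to 8.71 and 8.67. Atp10d fell by 2.54 (adjusted p = 2.0e-05), Ckmt1 by 2.04 (adjusted p = 1.1e-05) and Sult4a1 by 1.65 (adjusted p = 0.00063, limma). For Lrp11, Ckmt1 and Sult4a1 the progenitor was thus the low point between 2 higher stages, in cells with no REST genotype compared. The 8 genes not called between NP and TN were Lhfpl5, Grik3, Unc79, Atp10d, Mapk11, Armh4, Tmem241 and Ift27. For Grik3 another probe set on that platform rose by 2.02 where the one used was at -0.04. Unc79 read only 2.45 to 2.66 on every course array, a low signal from which a rise cannot be judged. Lhfpl5 was low there too, at 2.84 to 3.26. On the first platform Unc79 was higher by 3.14 in TN RESThet than in NP RESTwt. Of the 8 genes, 6 were higher in that comparison, with a median of 0.86.

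**Figure D5:**
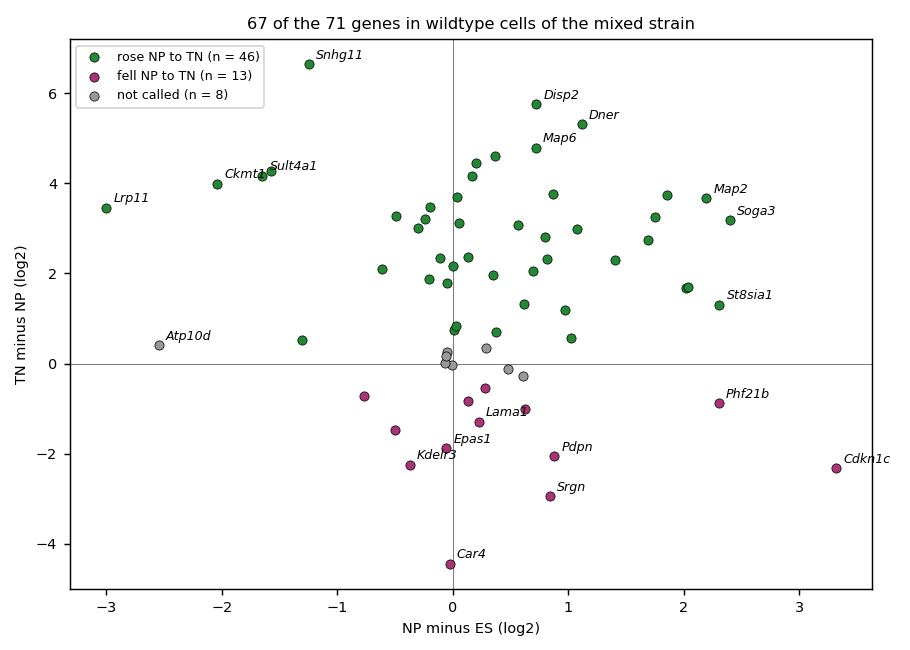
Step NP minus ES (x axis) and TN minus NP (y axis) in log2 signal, in mixed-strain wildtype cells with 2 arrays a stage, for the 67 genes on that platform, 1 point each and coloured by the call from NP to TN. Most points lie above 0 on the y axis, with Snhg11 highest at 6.64, and Car4 lowest at -4.43.

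The 5 genes called higher at TN in the RESTko arrays were all among the 13 that fell from NP to TN in the course. Of the 46 risers 0 were called at TN by limma, with a median TN difference of -0.01, and of the 13 that fell 5 were, with a median of 0.17. Over all genes 0.356% were called higher and 0.802% lower at TN, so 0 of 46 lies near that share. The same split over all genes is not given here. Across the 67 genes the course step from NP to TN and the TN genotype difference had r = -0.42 (rho = -0.35, n = 67 genes, on separate arrays). Steps on the 18 arrays can be set beside those of the course: from ES to NP in RESTwt r = 0.75 (rho = 0.73), and from NP RESTwt to TN RESThet r = 0.86 (rho = 0.87, n = 67 genes in both).

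Levels in the knock-out arrays can be set against neurons, gene by gene, as a description across arrays whose titles begin with different numbers. For the 46 risers the RESThet neurons were above the RESTko stem cells for 45 (median gap 2.37 log2 units), Crip2 being the other. They were above the RESTko progenitors for 42 (median gap 1.18), the others being Rundc3a, Crip2, Pid1 and Srrm3. Pclo had a gap of 4.12 to the RESTko progenitors. For the 13 that fell, the RESThet neurons were below the RESTko progenitors in 13 of 13 (median -1.32) and below the RESTko stem cells in 10. Car4 had a gap of -3.31 to the RESTko progenitors. Over all 19938 genes, the RESThet neurons were above the RESTko stem cells for 11276 (median gap 0.11). They were above the RESTko progenitors for 11701 (median gap 0.13). The course step that split the genes tracks the step from NP RESTwt to TN RESThet (r = 0.86), so the split shapes these counts.

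A list of 62 known RE1 targets outside the excluded symbol beginnings held 58 measured genes, of which 5 are among the 71 (Disp2, Dner, Mapk11, Mapk8ip2 and Rundc3a). Genes with a difference of 0.5 at both stages are mostly removed from the other 53 by the choosing rule, which lowers their counts. Of these 53, limma called 3 higher and 0 lower at ES (median 0.02), while 5.19% of all genes were called higher and 4.05% lower. They were Tubb3, a neuronal tubulin (0.53, adjusted p = 0.0074), the kinase Brsk2 (0.45, adjusted p = 0.0151) and the vesicle adaptor Ap3b2 (0.39, adjusted p = 0.0284). Without RESTko array c or RESTwt array a 1 of the 53 was called higher at ES, and without the latter 2 were called lower. At NP 23 were higher and 0 lower (median 0.36), against 4.32% and 3.71% of all genes. The largest were the glycine receptor subunit Glra2 (1.74), tyrosine hydroxylase Th (1.71), the potassium chloride transporter Slc12a5 (1.65) and the protease Mmp24 (1.49), with adjusted p of 1.1e-05 for Glra2 and smaller for the others (limma). Fitted alone, the NP arrays gave 11 in place of 23. At ES these 4 differed by -0.04 to 0.18.

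At TN 1 of the 53 was called higher, the acetylcholine transporter Slc18a3 (0.65, adjusted p = 0.0048), and 3 lower: Tac1 (-1.12, adjusted p = 0.0227), the glutamate transporter Slc17a6 (-0.83, adjusted p = 0.0249) and Calb1 (-0.55, adjusted p = 0.0057, limma), with a median of -0.02. The count of 3 was 1 without RESTko array a, RESTko array c, RESThet array b or RESThet array c, and in the TN arrays alone 0 of the 53 were called in either direction. The 5 list genes among the 71 were not called there. The 40 genes left out by symbol had 1 called higher and 1 lower at TN. In the course 36 of those 40 rose from NP to TN and 2 fell, with a median step of 3.38.

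By position, pairs of the 71 genes lay close together in a few places of GRCm38.p6. Soga3 and 9330159F19Rik on chromosome 10 overlap, so their signals may not be separate. Miip and Fv1 on chromosome 4 lie 260 bases apart, Pid1 and Dner on chromosome 1 lie 29997 bases apart, and Mapk11 and Mapk8ip2 on chromosome 15 lie 304 kb apart. Miip was higher by 0.99 and 0.55, and its neighbour Fv1 by 1.29 and 0.91. Of the 71, 2 genes lie near Rest on chromosome 5: Sgcb at 3.62 Mb and Atp10d at 4.97 Mb, with ES differences of 2.13 and 1.68. The 55 other measured genes within 6 Mb of Rest had a median of 0.01 at ES (6 called higher, 0 lower, limma). At NP their median was 0.03 (2 higher, 1 lower, limma). Over all genes 5.19% were called higher and 4.05% lower at ES, and 4.32% and 3.71% at NP. Whether sequence around the altered locus differs between the lines was not tested.

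The Rest probe set followed the labels at ES, with 8.96 ± 0.02 in RESTwt and 8.61 ± 0.07 in RESTko (SD, n = 3), but not at NP (7.48 ± 0.03 and 7.47 ± 0.09) or at TN, where it was 7.03 ± 0.03 in RESThet and 7.37 ± 0.09 in RESTko. Where the probe set lies relative to the deletion is not given in the sources used here, so genotypes rest on the labels. Stage markers changed with the stages in RESTwt and RESThet cells: Pou5f1 was at 11.4, 7.50 and 6.12 at ES, NP and TN, Pax6 at 4.86, 8.76 and 5.60, and Rbfox3 at 4.78, 6.30 and 8.65. Nanog was at 11.2, 8.26 and 6.73, so ES cell markers kept signal at NP. The mean level of 12 such markers on NP arrays a, b and c was 6.39, 7.26 and 7.05 in RESTwt. In NP RESTko it was 5.97, 6.89 and 6.85. The part of this signal in the NP differences was not tested. Pou5f1 varied among neurons from 4.97 to 7.25 over the 6 TN arrays, with 5.47, 7.17 and 5.86 in RESTko arrays a, b and c. A list of 12 neuron markers includes Map2 and RE1 targets such as Tubb3. Of these 12, 5 were called higher at ES, 8 higher at NP and 1 lower at TN. Over all genes 5.19% were called higher at ES, 4.32% higher at NP and 0.802% lower at TN. The list also holds Snap25, Syn1, Nefl, Stmn2 and Elavl3, whose symbol beginnings were left out of the 71. Its mean level at NP was 7.38 to 7.97 in RESTwt and 8.08 to 8.45 in RESTko. The part of this shift in the NP differences was not tested. Chromosome 8, with 955 genes and 1 of the 71 (Smpd3), had a median of -0.17 at ES and -0.19 at NP (RESTko minus RESTwt). Over all genes the medians were -0.03 and 0.01. At TN the median was -0.04 on chromosome 8 and -0.02 over all genes (RESTko minus RESThet). Any other difference between the RESTko and RESTwt cells cannot be told apart from the REST genotype here.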

How the data were processed

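The authors deposited log2 signals of probe sets for 18 and 6 arrays on 2 platforms. The submitters' processing notes name oligo 1.14.0; background correction, summarization and normalization remain not given in the sources used here. Values were used as deposited. The number of arrays limits the precision. Probe sets naming 1 gene (21789 of 35556; 34958 of 45101 on the course platform) took current GRCm38.p6 symbols by gene number, and the set with the highest mean stood for its gene, giving 19938 and 18194 genes. Arrays of a group correlated with r of 0.992 to 0.998.

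A mean per group was fitted to all arrays of a platform with limma 3.58.1 (R 4.3.3, lmFit and eBayes, two-sided), with Benjamini-Hochberg adjustment over all genes of a comparison and calls at adjusted p under 0.05. The fit was tested on simulated data. A fold is 2 to the power of the log2 difference. Comparisons between platforms used differences only.

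The members, lists, markers and tests were chosen with earlier results of these data known; roles were assigned after the members were found. Values of every array were given for the 12 genes with the largest smaller-of-both differences, genes called at TN and genes at the threshold; in the course, the 4 largest calls in each direction of each step were named, and of the RE1 list up to 4 called genes a stage. The RE1 list comes from general knowledge and may not hold all targets.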

Additional observations from a re-analysis of the deposited data

How the results depend on the processing

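The number of genes meeting the choosing rule was 117 with a difference of at least 0.4 and 49 with 0.6, 70 with the mean over a gene's probe sets, 68 after quantile normalization, and 66 to 83 when 1 array was left out. At TN, the number of the 71 called higher by limma was 1 when the TN arrays were fitted alone and 3 to 5 when 1 array was left out (3 without RESTko array c or RESThet array c). The number of genes called there, 231, was 50 in the TN arrays alone and 117 to 205 with 1 array left out, the lowest without RESTko array c. Omitting RESThet array c gave 138 and omitting RESTko array a gave 145. Same-lettered arrays did not deviate together in every pair (r from -0.142 to 0.399), so letters were not taken as pairs. With a replicate block 4 of the 71 and 206 genes were called, Kdelr3 being lost (adjusted p = 0.0548). Kdelr3 was lost in 6 of 12 settings and Pibf1 in 3, among them without RESTko array c (adjusted p = 0.0603) and without RESThet array c (0.051). Srgn was called in all 12 settings (highest adjusted p = 0.00315). No value reversed under the alternatives run, and 0 of the 71 were called lower at TN in any of them. The counts of the course stayed within 1.5 times: 43 to 46 rose and 11 to 13 fell from NP to TN, and 18 to 26 rose and 8 to 11 fell from ES to NP. For the 53 RE1 targets outside the 71, whose alternatives were chosen after seeing the data, 23 were called higher at NP, 11 in the NP arrays alone and 18 to 26 with 1 array left out, when 0 to 1 were lower. At ES the 3 higher became 5 with array weights and 1 to 3 with 1 array left out, and the 0 lower became 1 with array weights or in the ES arrays alone and 0 to 2 with 1 array left out. At TN the 3 lower became 1 without the dimmest 30% of genes, 0 in the TN arrays alone and 1 to 4 with 1 array left out, and the 1 higher became 0 in the TN arrays alone. Signal near background limits the dim genes, whose differences on a log2 scale understate the change.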

Other observations

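Several of the 71 genes had more than 1 probe set. On the 18 arrays another set was present for Marchf11 and Snhg11, and it gave smaller genotype differences than the one used: 0.15 at ES and 0.30 at NP for Marchf11, against 0.91 and 0.75, and 0.47 and 0.28 for Snhg11, against 0.67 and 0.57. In the course 39 genes had 69 other sets, and 62 of the 69 had the same sign from NP to TN as the set used.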
